A study of Aegilops tauschii x Triticum turgidum and Aegilops tauschii and Triticum turgidum subsp. durum with 18 samples.

Results

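Gene expression in 2 subspecies of the goat grass Aegilops tauschii was compared on 4 arrays, out of 18 in the series. Ae36 denotes accession 36, of ssp. strangulata, and Ae54 denotes accession 54, of ssp. tauschii. The arrays were chosen by their sample descriptions, which give each accession 2 biological replicates. RNA came from whole plants of 40 days, grown without treatment under a 16 h photoperiod at 24 °C, and was hybridised to the Affymetrix GeneChip Wheat Genome array. The other 14 arrays, 2 for each group, came from plants of the same age and growth conditions. Joyau is a cultivar of the tetraploid wheat Triticum turgidum. S0_36 and S0_54 are the hybrids of Joyau with Ae36 and with Ae54 at selfed generation 0, and S1_54 is selfed generation 1 of the hybrid with Ae54. RNA of Joyau was mixed in equal amounts with that of Ae36 (mix36) or of Ae54 (mix54). Courtot is a cultivar of the natural hexaploid bread wheat, Triticum aestivum.

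Aegilops tauschii is the diploid that gave bread wheat its D genome, and the lineage of ssp. strangulata is generally held to be nearest to that donor. A synthetic hexaploid repeats the cross by joining a tetraploid wheat with Ae. tauschii. The choice of accession therefore sets which D-genome copy of each gene the synthetic carries. The probes of the array were designed on wheat sequences, and a probe set gives 1 value for all gene copies that its probes match. How well the probes match each accession was not measured here, so a difference in transcript level and a difference in probe match cannot be told apart. In RNA of whole plants, fewer cells of a type and less RNA per cell cannot be told apart either.

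The labels of the 4 arrays were checked before any comparison. They give 20 µg of total RNA for both Ae36 arrays and Ae54 replicate 2. For Ae54 replicate 1 and the 14 other arrays they give 40 µg. The organism label of Ae54 replicate 1 names the hybrid, its extract label names the mix of Joyau and Ae54, and all 18 arrays carry a genotype label for a hexaploid. On a scale on which Joyau is at 0 and Ae54 at 1, this array lay at 1.00 and Ae54 replicate 2 at 0.998. The mix54 arrays lay at 0.380 and 0.378. That scale uses the array itself, and with Ae54 replicate 2 alone as the reference, an alternative added after seeing the data, Ae54 replicate 1 was again at 1.00 and the mix54 arrays were at 0.370 and 0.366. The Ae36 arrays lay at 1.00 and 0.989 on the first scale, so it does not tell the accessions apart. Across 18189 probe sets, Ae54 replicate 1 correlated at 0.971 with Ae54 replicate 2, at 0.887 and 0.885 with the Ae36 arrays and at 0.739 with both mix54 arrays, as a description. Ae36 replicate 2 stood apart in its control probe sets. Its hybridisation controls averaged 11.80 on the log2 scale, against 8.46 to 10.34 on all other arrays. Its actin controls gave a 3′ minus 5′ difference of -2.004, against -1.12 to -0.91 on the other Ae arrays and -0.84 to -0.59 on the 14 others. Ae36 replicate 1 had a 3′ minus 5′ difference of -1.11 for the gapdh controls, against -0.32 to -0.19 on all other arrays. The part of these array differences in the results was not tested, and the counts are given with and without each Ae array.

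Replicate arrays differed with an SD of 0.671 in Ae36 and 0.556 in Ae54 on the log2 scale, over 18189 probe sets. Across the same probe sets, the correlation was 0.959 within Ae36, 0.971 within Ae54 and 0.881 to 0.887 between the accessions, given as a description. A probe set was tested when it reached a log2 value of 5 on at least 2 of the 18 arrays, and 13213 of the tested probe sets did so on at least 2 of the 4 Ae arrays. Between 11895 and 12967 probe sets reached 5 on an Ae array, against 12902 to 14132 on the others. The labels give whole plants, and of the photosynthesis genes listed, petC, which encodes the Rieske iron-sulfur protein of the photosynthetic electron chain, lay between 13.73 and 14.18 on the 4 arrays by 1 probe set and between 2.46 and 2.93 by another. FBP, for fructose-1,6-bisphosphatase, lay between 9.83 and 10.86 by 1 probe set and between 3.55 and 4.63 by another. No gene symbol in the probe table matched the fixed list of seed storage genes.

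The accessions differed at many probe sets, in both directions. Of 18189 probe sets, 3322 (18.3%) passed the test at an adjusted p under 0.05. Of the 3322, 1599 (8.79% of all tested) were higher in Ae36 and 1723 (9.47% of all tested) were higher in Ae54. A log2 difference of 1, which is 2-fold, was reached by 2616 (14.4%), 1211 of them higher in Ae36 and 1405 higher in Ae54. The test was limma's moderated test in a fit of all 9 groups, two-sided, with Benjamini-Hochberg adjustment over all probe sets tested.

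Differences of 4-fold or more were found at 497 probe sets higher in Ae36 and 475 higher in Ae54. At 16-fold or more these counts were 112 and 63. Among the probe sets that passed, the median absolute log2 difference was 1.43, and over all those tested it was 0.40, with a median signed difference of -0.01. The median standard error (SE) of a difference was 0.29. Both arrays of one accession lay above both arrays of the other at 9627 probe sets (52.9%), among them all 3322 that passed.

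The number of differences stayed large when 1 array was left out, but the side that held more of them did not stay the same. Without Ae36 replicate 2, 2984 probe sets passed, and 58.1% of them were higher in Ae36. Without Ae54 replicate 1, 2330 passed and 54.72% were higher in Ae36. Without Ae36 replicate 1 the share was 39.8% of 3490, and without Ae54 replicate 2 it was 40.7% of 2437. The near balance of the full comparison, 48.1% higher in Ae36, therefore carries no direction beyond the spread between arrays.

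**Figure D1:**
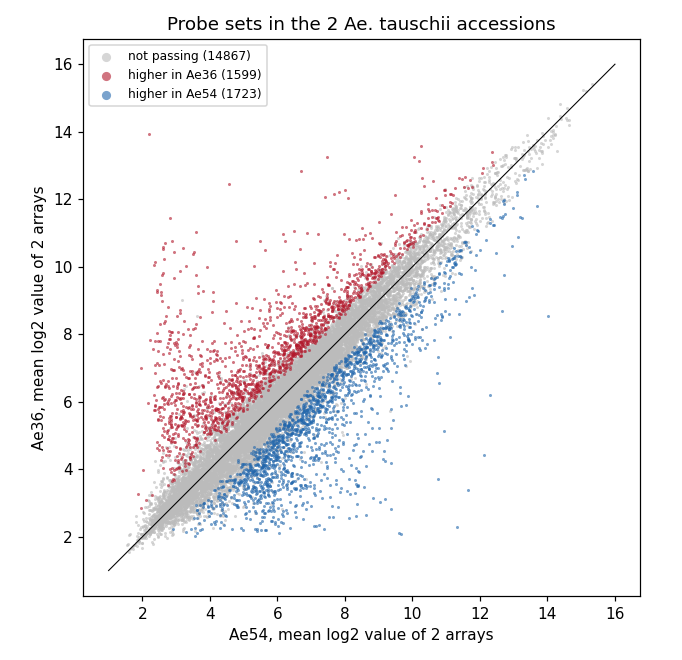
Mean log2 value of the 2 Ae54 arrays (x axis) against that of the 2 Ae36 arrays (y axis) for 18189 probe sets. Red points are the 1599 probe sets that passed as higher in Ae36, blue points the 1723 higher in Ae54 and grey points those that did not pass. The line marks equal values. Differences extend to the left and lower edges, where one accession lies near the floor.

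The share of probe sets that passed varied with level. Of 172 probe sets at 12 or more in both accessions, 10 passed and 1 of those reached 2-fold. By mean level over the 4 arrays, 5.43% passed below 4 and between 19.8% and 22.4% passed in the ranges from 4 to 12. At a mean of 12 or more, 12.6% passed. By design type, the share that passed ran from 16.2% of those ending in _a_at to 19.0% of those ending in _x_at.

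Gene names were available for few probe sets: 716 of those tested carried a symbol, and 142 of these passed, or 19.8% against 18.3% of all tested. Of the 142, 93 were higher in Ae36 and 49 in Ae54. Most symbols are LOC identifiers, for which the table gives no function, so they are reported by identifier and level. The 15 largest differences in each direction are described, 1 probe set for each gene.

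The widest named difference toward Ae36 was at LOC542898 (Ta.28695.6.S1_at). Its log2 values were 12.29 and 12.59 on the Ae36 arrays and 4.53 and 4.59 on the Ae54 arrays, a difference of 7.88 (SE 0.25, adjusted p = 1.61e-08, limma). Joyau lay below both accessions at 3.34 and 3.42, and Courtot lay near Ae54 at 3.72 and 4.14. The hybrids repeated the contrast, with 11.21 and 11.55 in S0_36 against 4.07 and 4.01 in S0_54. High values were thus found wherever the Ae36 genome or its RNA was present, mix36 included at 11.91 and 11.90, and in no other group.

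LOC606323 (Ta.2690.1.S1_at) had values of 11.45 and 10.60 in Ae36 and of 3.59 and 3.60 in Ae54, a difference of 7.43 (SE 0.34, adjusted p = 1.92e-07, limma). S0_36, at 11.48 and 11.50, lay at the level of Ae36. S0_54 lay at 7.64 and 8.13, well above both of its parents, since Joyau was at 3.01 and 3.03. In S1_54 it was at 4.60 and 5.28, between S0_54 and the parents.

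At LOC543196 (Ta.105.1.S1_at), the Ae36 arrays gave 9.13 and 8.13 and the Ae54 arrays 3.04 and 3.18, a difference of 5.53 (SE 0.50, adjusted p = 2.65e-05, limma). Its S0_36 values of 7.10 and 8.61 also lay above those of S0_54, at 4.09 and 3.00. All arrays without Ae36 material were at 4.15 or lower. LOC542888 (Ta.13255.1.S1_at) was at 8.91 and 6.79 in Ae36 and at 3.08 and 2.58 in Ae54, a difference of 5.02 (SE 0.62, adjusted p = 0.000261, limma). Both S0 hybrids exceeded their parents there, with 10.62 and 9.26 in S0_36 and 7.91 and 7.17 in S0_54, whereas S1_54 was at 2.76 and 2.97.

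For LOC780664, on the probe set with its largest difference, it was Ae54 that stood apart from Ae36 and Joyau. LOC780664 (Ta.5818.1.S1_a_at) was at 7.94 and 7.63 in Ae36 and at 7.88 and 7.65 in Joyau, but at 2.88 and 2.15 in Ae54. The difference between the accessions was 5.27 (SE 0.30, adjusted p = 7.52e-07, limma). On Ta.5818.1.S1_at, Joyau at 7.04 and 6.16 lay above Ae36 at 5.45 and 3.75 and Ae54 at 3.44 and 2.99. On the other tested probe sets of LOC780664, Joyau lay between the accessions. LOC543498 (Ta.22673.1.S1_s_at) was at 7.86 and 8.27 in Ae36, at 3.44 and 2.34 in Ae54 and at 5.73 and 5.63 in Joyau, which lay between the accessions. Its difference of 5.17 (SE 0.42, adjusted p = 1.08e-05, limma) was also found in the S0 hybrids, at 2.53 (adjusted p = 0.00369, limma). The S1_54 arrays, at 2.29 and 2.92, lay as low as Ae54.

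LOC542941 (Ta.13334.1.A1_at) was at 7.72 and 8.39 in Ae36 and at 3.04 and 2.66 in Ae54, a difference of 5.20 (SE 1.11, adjusted p = 0.00809, limma). Its hybrid arrays were widely spread, with 7.35 and 3.87 in S0_36 and 2.93 and 5.72 in S0_54, so the S0 groups overlapped. The call was lost with array weights and without the filter, at an adjusted p of up to 0.0834.

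The remaining 8 named genes higher in Ae36 differed by 2.99 to 4.58. LOC543261 (Ta.214.2.A1_at) was at 8.08 and 7.87 in Ae36, 3.22 and 3.57 in Ae54 and 2.04 and 2.01 in Joyau. Courtot, at 6.49 and 6.05, lay between the accessions. LOC542947 (Ta.10480.1.S1_a_at) differed at a high level, with 13.50 and 13.65 in Ae36 against 10.24 and 10.30 in Ae54, a difference of 3.31 (SE 0.51, adjusted p = 0.00113, limma). The other 6 were LOC543132 at 3.79, LOC543342 at 3.65, LOC543003 at 3.44, LOC543150 at 3.15, LOC543145 at 3.04 and LOC543144 at 2.99. Calls at LOC543145 and LOC543144 were lost when only the 2 accessions entered the fit, at adjusted p-values of 0.0545 and 0.101.

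Toward Ae54, the largest named differences were those of LOC542946, described further on, and LOC100037599. LOC100037599 was measured by 2 probe sets. On Ta.16082.1.A1_a_at it was at 8.54 and 8.30 in Ae54 and at 4.43 and 3.40 in Ae36, a difference of -4.51 (SE 0.45, adjusted p = 5.61e-05, limma). On Ta.16082.1.A1_at the values were 8.95 and 8.67 in Ae54 and 5.30 and 3.79 in Ae36, a difference of -4.26 (SE 0.40, adjusted p = 3.82e-05, limma). Both probe sets placed every Ae54 array above every Ae36 and Joyau array.

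LOC542847 (Ta.2882.1.S1_s_at) was at 9.82 and 9.47 in Ae54 and at 5.999 and 5.733 in Ae36, a difference of -3.78 (SE 0.26, adjusted p = 3.46e-06, limma). Its other probe set, Ta.2882.1.S1_at, was at 3.06 and 3.06 in Ae36 and at 3.58 and 3.61 in Ae54, which did not pass (adjusted p = 0.268, limma). The probe sets of this gene thus did not give the same accession difference. Courtot was high on both, at 9.06 and 9.05 on the first and 6.14 and 6.46 on the second.

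Joyau had the highest values of the parents at LOC100037539 and LOC542817. LOC100037539 (Ta.1282.2.S1_x_at) was at 13.49 and 13.51 in Joyau, 10.19 and 9.42 in Ae54 and 5.61 and 6.22 in Ae36, an accession difference of -3.89 (SE 0.28, adjusted p = 4.73e-06, limma). All mix, hybrid and Courtot arrays lay between 13.04 and 13.76, so the accession difference was not visible beside the Joyau signal. At LOC542817 (Ta.23807.1.S1_x_at), Joyau was at 9.00 and 8.41, Ae54 at 7.19 and 7.76 and Ae36 at 3.96 and 4.12, an accession difference of -3.43 (SE 0.50, adjusted p = 0.000812, limma).

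The calls of 4 named genes higher in Ae54 depended on single arrays and on other settings. The largest adjusted p over all alternatives is given for each. LOC542946 (Ta.1165.1.A1_at) was at 8.86 and 8.42 in Ae54 and at 3.27 and 4.92 in Ae36, a difference of -4.55 (SE 1.09, adjusted p = 0.0153, limma). Its call was lost without Ae54 replicate 1, Ae54 replicate 2 or Ae36 replicate 1, with no filter and with array weights, with adjusted p-values of up to 0.0883. LOC543317, with a difference of -3.91, was lost without Ae36 replicate 2 or Ae54 replicate 2 and with array weights, at up to 0.0992. LOC606354, at -2.27, rested on Ae54 values of 8.92 and 11.04, and its call was lost without Ae36 replicate 1, Ae36 replicate 2 or Ae54 replicate 2, with no filter, with array weights and when only the accessions entered the fit, at up to 0.217. LOC543432, at -2.16, was lost without Ae54 replicate 1 and when only the accessions entered the fit, at up to 0.0928.

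Further named genes higher in Ae54 were LOC780692 at -2.55, LOC100037633 at -2.27, LOC100049055 at -2.24, LOC100049056 at -2.18, LOC606320 at -2.08, LOC542957 at -2.05 and LOC606321 at -2.01. The calls at LOC780692 and LOC606320 were lost when only the accessions entered the fit, at adjusted p-values of 0.0769 and 0.0536.

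**Figure D2:**
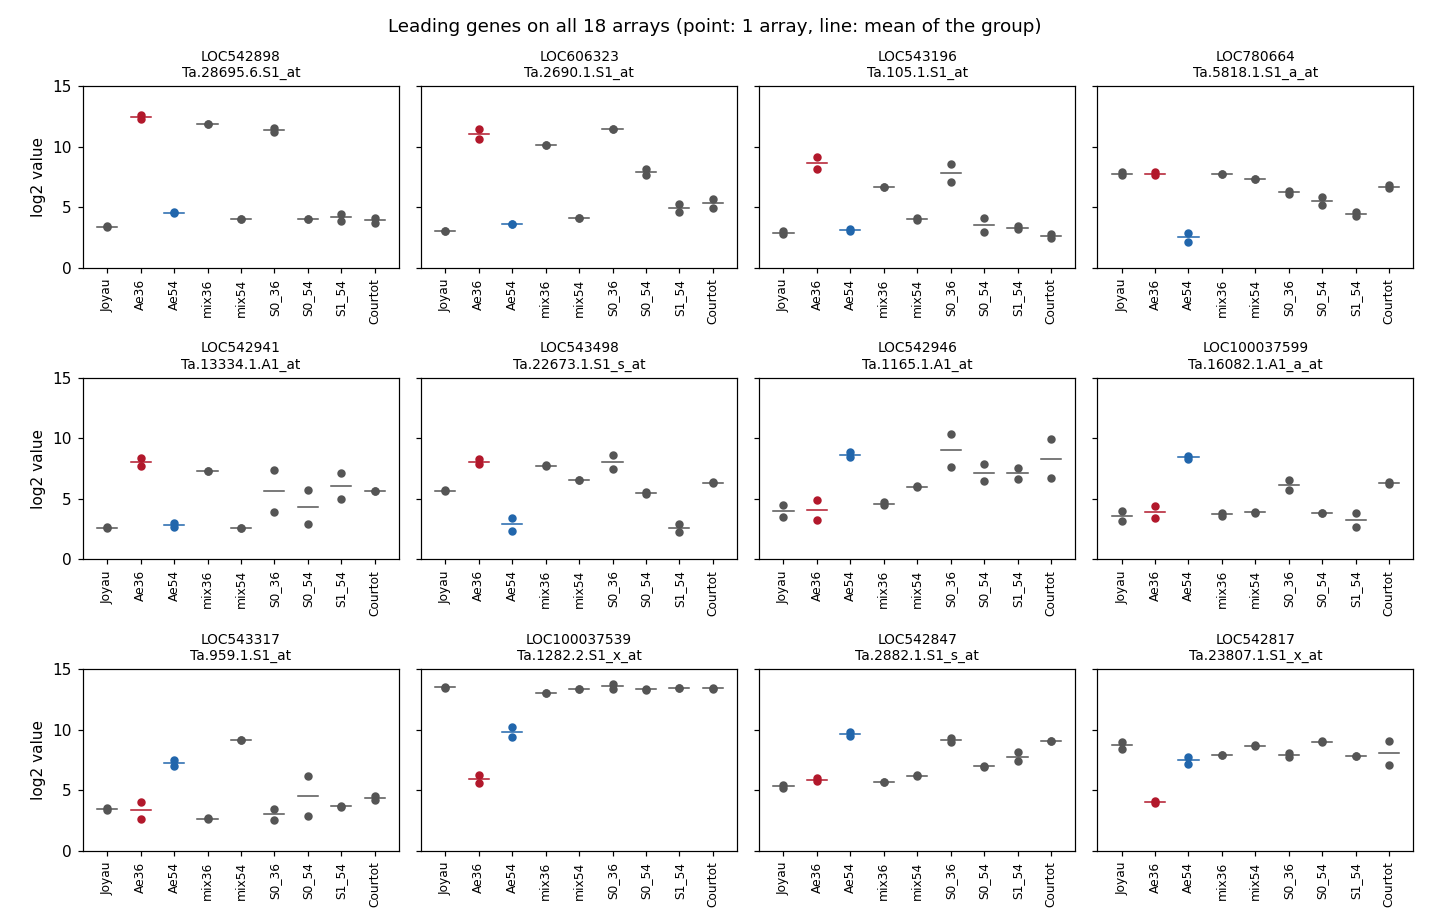
Log2 values on all 18 arrays for the 6 named genes with the largest differences toward Ae36 and the 6 toward Ae54, with 1 panel for each probe set. Each point is 1 array and each line the mean of a group of 2. Red marks Ae36, blue marks Ae54 and grey the other groups. LOC542898 is high in Ae36, mix36 and S0_36 and below 5 elsewhere. LOC100037599 and LOC542847 have higher means in Ae54, S0_36 and Courtot than in Ae36. At LOC542847, the means of mix54, S0_54 and S1_54 also exceed that of Ae36.

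Probe sets with no gene in the table held larger differences still. Ta.26910.1.S1_at was at 14.11 and 13.74 in Ae36 and at 2.20 and 2.20 in Ae54, a difference of 11.73 (SE 0.28, adjusted p = 2.06e-09, limma). It was at 11.54 and 10.55 in S0_36 and between 2.15 and 2.19 on all Joyau, mix54, S0_54, S1_54 and Courtot arrays. Ta.28115.1.S1_at was at 11.78 and 11.10 in Ae36 and at 2.79 and 2.85 in Ae54, a difference of 8.62 (SE 0.22, adjusted p = 3.86e-09, limma). Courtot shared this signal, at 8.32 and 8.42, but not that of Ta.26910.1.S1_at.

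Toward Ae54, Ta.10183.1.S1_at was at 11.52 and 11.13 in Ae54 and at 2.29 and 2.30 in Ae36, a difference of -9.03 (SE 0.31, adjusted p = 3.22e-08, limma). It was high in S0_54, at 10.43 and 10.28, and in Courtot, at 8.19 and 9.12. Ta.3987.1.S1_x_at was at 12.14 and 11.13 in Ae54 and at 3.28 and 3.49 in Ae36, a difference of -8.25 (SE 0.38, adjusted p = 1.92e-07, limma). Here S0_54 was high, at 9.995 and 9.952, and Courtot was low, at 3.43 and 3.13.

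Genes with several probe sets gave 1 direction where more than 1 passed. Of 146 genes with at least 2 tested probe sets, 13 had at least 2 that passed, and in all 13 these ran the same way. In 32 genes some probe sets passed and others did not. LOC780664 had 4 tested probe sets, of which 3 passed with differences of 5.27, 2.51 and 1.29, and the fourth differed by 1.38 (adjusted p = 0.0803, limma). LOC543342 passed on Ta.27762.1.S1_x_at, but Ta.27762.1.S2_at differed by -0.26 (adjusted p = 0.817, limma). LOC543150 passed on Ta.30711.1.S1_x_at, but Ta.21350.2.S1_at differed by 0.49 (adjusted p = 0.784, limma). On the latter the Ae arrays lay between 3.02 and 3.97, near the floor.

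Among the tested genes with a symbol other than a LOC identifier, CAT1 passed. CAT1, which encodes a catalase that breaks down hydrogen peroxide, was at 11.00 and 11.18 in Ae36 and at 11.999 and 11.850 in Ae54, a difference of -0.83 (SE 0.24, adjusted p = 0.0360, limma). The S0 hybrids differed by a like amount, -0.85, with 9.95 and 10.11 in S0_36 and 10.66 and 11.10 in S0_54, but this missed the threshold (adjusted p = 0.0627, limma). In neither pair of groups did the arrays overlap, but 52.9% of all tested probe sets also had no overlap between the accessions. That share was not computed for the S0 hybrids. A second CAT1 probe set stayed below the filter, between 2.87 and 2.91 on the Ae arrays.

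None of the other 8 probe sets with such a symbol passed. SAHH, which encodes the enzyme that breaks down S-adenosylhomocysteine after methyl transfer, differed by 0.78 (adjusted p = 0.144, limma) and 0.90 (adjusted p = 0.142, limma) on its 2 probe sets. Its Ae36 arrays were at 12.22 and 11.34 on the first probe set and its Ae54 arrays at 10.65 and 11.35, so the groups overlapped. FBP, an enzyme of sugar synthesis, was at 9.83 and 10.45 in Ae36 and 10.84 and 10.86 in Ae54, a difference of -0.71 (adjusted p = 0.151, limma). GAPN, for a non-phosphorylating glyceraldehyde-3-phosphate dehydrogenase, differed by -0.73 (adjusted p = 0.136, limma). The remaining 4 were petC at -0.32 (adjusted p = 0.340), TUBA, for alpha-tubulin, at 0.43 (adjusted p = 0.268), TBP1 at -0.38 (adjusted p = 0.540) and XTH, for a xyloglucan-modifying cell wall enzyme, at 0.48 (adjusted p = 0.737), all from limma. Of the fixed lists, photosynthesis had 2 tested probe sets and 0 passed, carbon and methyl metabolism 3 and 0, and antioxidant and detoxification 1 and 1, against 18.3% passing of all tested. Lists of 1 to 3 probe sets show nothing beyond that share. The thionin genes THI1.1 and THI1.2 and the cold-response gene COR410 stayed below the filter.

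The lower accession had a mean below 4 at 404 (33.4%) of the 1211 probe sets higher in Ae36. For the 1405 higher in Ae54 the number was 420 (29.9%). Either accession was below 4 at 24.1% of all tested, which includes the 15.2% of all tested with both below 4. Such values lie near the floor of the arrays, where an unexpressed gene and poorly matched probes cannot be told apart. Joyau was below 4 at 486 (40.1%) of the probe sets higher in Ae36 and at 324 (23.1%) of those higher in Ae54, against 14.6% of all tested. At 191 (15.8%) and 473 (33.7%), Joyau was at or above the higher accession. The share over all tested was not computed for this measure.

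The S0 hybrids carry the D genome of one accession or the other beside the same Joyau genomes, and share no array with the diploids. S0_36 and S0_54 differed at 1359 probe sets (7.47%), 1011 (5.56%) higher in S0_36 and 348 (1.91%) higher in S0_54. Over all probe sets tested, the median S0 difference was -0.12, so the larger number higher in S0_36 did not come with a shift of the whole distribution that way. The S0 difference had the same sign as the diploid difference at 2007 (76.7%) of the 2616 probe sets with a 2-fold accession difference, against 59.8% of all tested. Across the 2616 probe sets, the correlation of both differences was 0.556, and across all 18189 it was 0.304, given as descriptions over probe sets.

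The medians of these probe sets were smaller in the hybrids. That of the 1211 probe sets higher in Ae36 went from 1.73 in the diploids to 0.40 in S0, and that of the 1405 higher in Ae54 from -1.62 to -0.48. These probe sets were chosen on the diploid difference and not on the S0 difference. That choice alone favours smaller differences in S0, and S0 values also hold the Joyau signal. The part of either was not tested. Of the 1211, 257 passed in S0 in the same direction, 953 did not pass and 1 passed in the opposite direction. Of the 1405, 194 passed in the same direction, 1080 did not pass and 131 passed in the opposite direction. The diploid and S0 differences were unequal at 1498 probe sets (8.24%) by the test of the difference between them, and at 992 (37.9%) of the 2616. The diploid difference enters that test too, so the choice of the 2616 favours a higher share among them.

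**Figure D3:**
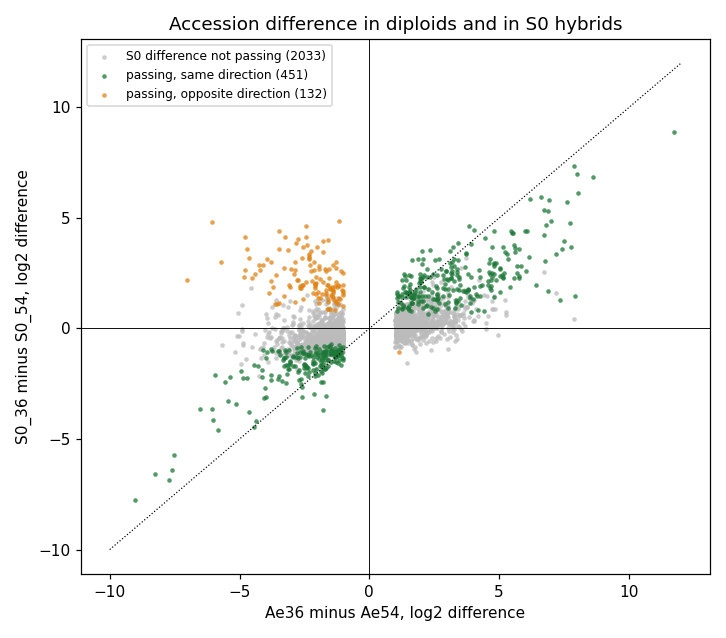
Log2 difference Ae36 minus Ae54 (x axis) against S0_36 minus S0_54 (y axis) for the 2616 probe sets with a 2-fold accession difference that passed. Green points passed in S0 in the same direction (451), orange points in the opposite direction (132) and grey points did not pass (2033). The dotted line marks equal differences. The orange points lie at the upper left, higher in Ae54 and in S0_36, and 1 lies in the lower right.

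The reversed probe sets were almost all on one side: 131 of 132 were higher in Ae54 among the diploids and higher in S0_36 among the hybrids. The other was Ta.4850.1.A1_s_at, at 1.12 in the diploids and -1.07 in S0. All 131 passed the test of the difference between both contrasts, which opposite calls largely fix. This class was defined after its values were seen. The 3 with the largest diploid differences illustrate it.

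Ta.13622.1.S1_at was at 10.76 and 10.76 in Ae54 and at 3.86 and 3.58 in Ae36, but at 9.37 and 9.45 in S0_36 and 7.43 and 7.00 in S0_54. Ta.7143.2.S1_x_at was at 9.23 and 9.11 in Ae54 and at 2.97 and 3.27 in Ae36, with 8.22 and 8.55 in S0_36 and 3.46 and 3.67 in S0_54. Joyau was low at 3.11 and 3.59, so S0_36 lay far above both of its parents. In TaAffx.71647.1.A1_at, Ae54 was at 8.79 and 7.88, Ae36 at 2.77 and 2.46, S0_36 at 5.38 and 5.72 and S0_54 at 2.46 and 2.60. In each of the 3, both S0_36 arrays lay above both S0_54 arrays, opposite to the diploids, which the choice of the class largely fixes.

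Of the 131, 5 probe sets carried a symbol, for 4 genes. LOC100037599 was at 6.55 and 5.70 in S0_36 and at 3.84 and 3.83 in S0_54 on Ta.16082.1.A1_a_at, a difference of 2.29 (adjusted p = 0.0112, limma), and its second probe set differed by 2.87 (adjusted p = 0.00134, limma). LOC542847 was at 9.30 and 8.98 in S0_36 and at 6.98 and 6.96 in S0_54, a difference of 2.17 (adjusted p = 0.000460, limma). For that gene the second probe set, which did not pass in the diploids, was also higher in S0_36, at 6.31 and 6.33 against 3.62 and 3.61. LOC100049055 (Ta.4725.1.S1_at) had the widest S0 difference of the 4 genes, 3.49 (adjusted p = 6.69e-06, limma), from 8.79 and 8.78 in S0_36 and 5.30 and 5.29 in S0_54. LOC100049056 (Ta.5456.1.A1_at) was lower, at 4.81 and 3.78 in S0_36 and 2.77 and 2.60 in S0_54, a difference of 1.61 (adjusted p = 0.0161, limma).

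The 131 were chosen with S0_36 above S0_54 and Ae36 below Ae54, which favours S0_36 values above those of Ae36. The counts that follow describe the class, and their shares over all tested probe sets were not computed. Both S0_36 arrays were above all Joyau and Ae36 arrays at 116, and at 102 the S0_36 mean was higher than both parents by 1 or more. At 76 it was within 1 of Ae54. Over the 131, the median was 4.68 in S0_54 and 7.24 in Ae54, the accession that the labels give as its parent, and S1_54 lay nearer to S0_54 than to S0_36 at 126. Over the 61 of these probe sets with Joyau below 4, the group medians were 6.72 in Ae54, 6.12 in S0_36, 3.92 in Ae36, 3.29 in S0_54 and 3.38 in S1_54.

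By contrast, S0 followed the D-genome parent at probe sets that passed in the same direction, which the choice of the class largely fixes. In the 181 with Joyau below 4 that were higher in Ae36, the medians were 7.57 in Ae36, 5.68 in S0_36, 3.21 in Ae54 and 3.17 in S0_54. In the 91 higher in Ae54, they were 7.15 in Ae54, 5.70 in S0_54, 3.88 in Ae36 and 3.37 in S0_36. These classes were chosen on the diploid and S0 arrays, so only the mix, S1_54 and Courtot values are independent of the choice. In the 181, the medians were 6.58 in mix36, 3.06 in mix54 and 3.17 in S1_54. For the 91 they were 3.69 in mix36, 5.25 in mix54 and 5.02 in S1_54. For the 61 they were 3.58, 4.01 and 3.38. Courtot had medians of 5.03 in the 181, 4.60 in the 91 and 3.91 in the 61.

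**Figure D4:**
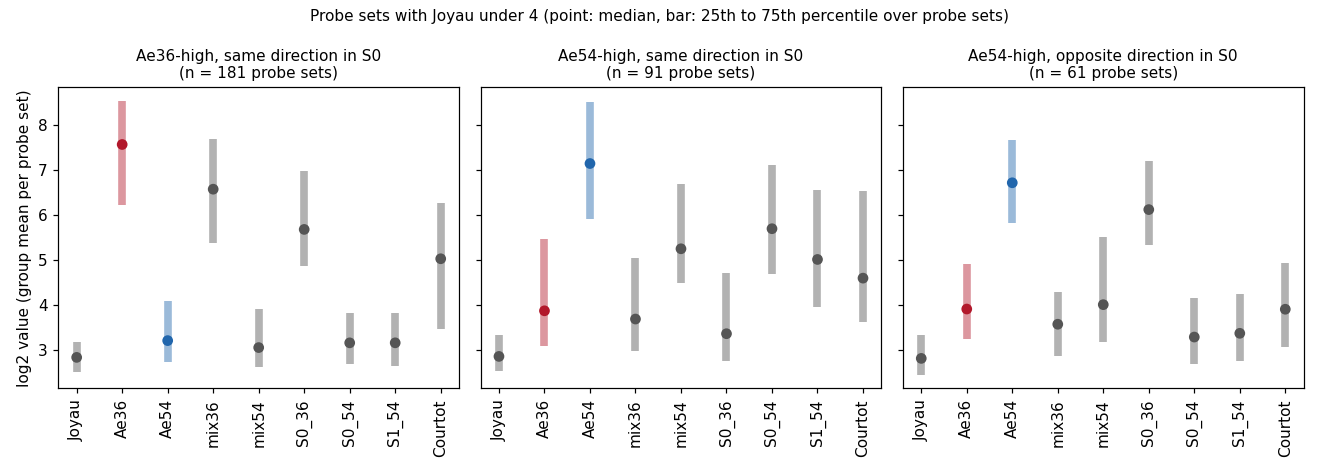
Log2 levels by group for probe sets with Joyau below 4, split by the direction of the S0 difference: 181 higher in Ae36 with the same direction in S0, 91 higher in Ae54 with the same direction, and 61 higher in Ae54 with the opposite direction. Points are medians over probe sets of the group means, and bars run from the 25th to the 75th percentile. In the third panel S0_36 lies near Ae54, and mix54, S0_54 and S1_54 lie low.

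The count of reversed probe sets was 110 without Ae36 replicate 2 and 109 without Ae54 replicate 1. It fell to 84 without S0_36 replicate 3, more than a 1.5-fold change from 132, and to 91 and 95 without S0_54 replicate 3 and replicate 4.

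The RNA mixes gave a further reading of the accession difference, since each holds RNA of one accession. For each probe set a level was computed as the log2 of the mean of the Joyau and Ae linear values, and the measured mix was compared with it. In mix36, the 486 probe sets higher in Ae36 with Joyau below 4 had a median of -0.10 for measured minus computed, and 449 (92.4%) were within 1. In mix54, the 324 higher in Ae54 with Joyau below 4 had a median of -1.13, only 144 (44.4%) were within 1, and 76 (23.5%) were lower than computed by 2 or more. None of the 486 in mix36 was that low.

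These probe sets were chosen for high values on the Ae arrays that also enter the computed level. A set with like values in both accessions was read too. It held 334 probe sets with Joyau below 4 and with both accessions at 6 or more and within 0.5 of each other. This set was also chosen for high values on the Ae arrays, so it does not remove that effect of the choice. Its median was 0.17 in mix36, with 93.1% within 1, and -0.37 in mix54, with 67.4% within 1 and 22 lower by 2 or more. Over all 18189 tested, the medians were -0.08 in mix36 and -0.01 in mix54. Of all tested, 96.9% in mix36 and 90.5% in mix54 were within 1. Lower by 2 or more were 42 (0.23%) in mix36 and 241 (1.32%) in mix54.

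The reversed probe sets were low in mix54 as well. Over the 61 with Joyau below 4, the median of measured minus computed was -1.44, and 24 were lower by 2 or more. For the 91 that passed in the same direction it was -0.69. Ta.7143.2.S1_x_at was at 3.57 and 3.37 in mix54 although Ae54 was at 9.23 and 9.11. LOC100037599 was at 3.92 and 3.82 in mix54 on Ta.16082.1.A1_a_at, against 8.54 and 8.30 in Ae54. At both, the signal of Ae54 was not recovered in the mix that the labels describe as holding Ae54 RNA. Conversely, LOC543132 was at 7.80 and 7.86 in mix54, above Joyau at 5.34 and 4.68 and Ae54 at 2.85 and 2.46. LOC543317 was at 9.18 and 9.15 in mix54, above Ae54 at 6.98 and 7.53 and Joyau at 3.34 and 3.52. At these 2 genes, both mix54 arrays lay above every array of both components. On the scale from Joyau at 0 to Ae54 at 1, mix54 lay at 0.380 and 0.378, whereas both mix36 arrays lay at 0.550. On the scale to Ae36, mix36 lay at 0.554. Whether the RNA in mix54, and the parent of S0_54 and S1_54, were of the same stock as the plants of the Ae54 arrays was not tested.

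**Figure D5:**
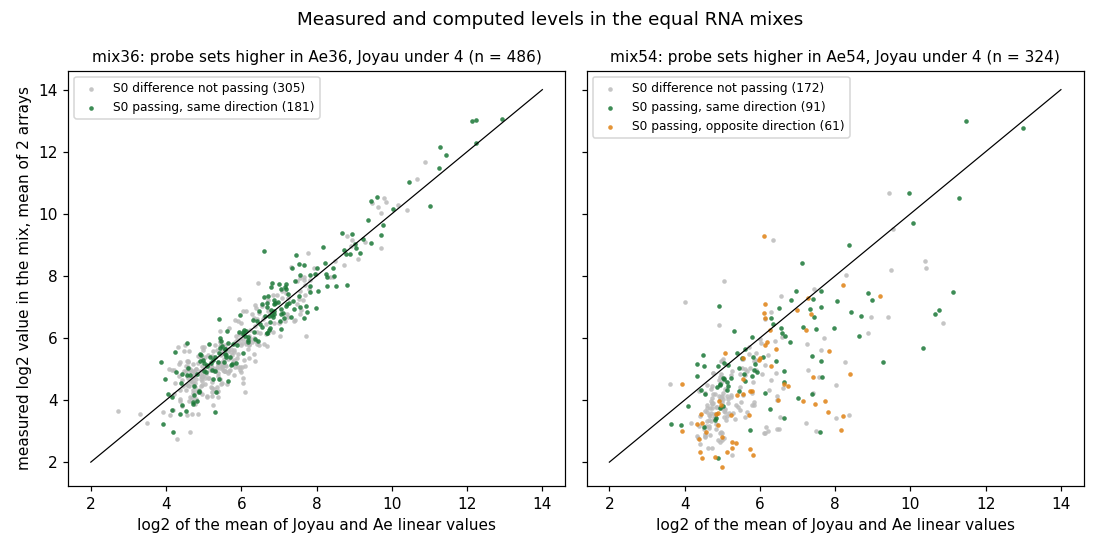
Measured log2 value in a mix (y axis, mean of 2 arrays) against the level computed from Joyau and the accession (x axis). Left, mix36 at the 486 probe sets higher in Ae36 with Joyau below 4. Right, mix54 at the 324 higher in Ae54 with Joyau below 4. Colours give the direction of the S0 difference and the line marks equality. Points of mix36 follow the line, while many points of mix54 lie below it, with a median of -1.13.

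Some probe sets were seen in a single accession, with both of its arrays at 5 or more and both arrays of the other below 4. There were 255 (1.4%) seen in Ae36 and 215 (1.18%) seen in Ae54. Joyau was below 4 on both arrays at 186 and 111 of them, so that any signal in a hybrid could be read against 2 low groups. These are descriptions, with no test.

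Of the 186 seen in Ae36, both arrays reached 5 at 124 in mix36, at 71 (38.2%) in S0_36 and at 51 (27.4%) in Courtot. The same was true of 6 in mix54, 5 in S0_54 and 3 in S1_54. Of the 111 seen in Ae54, 24 (21.6%) reached 5 in mix54, 16 (14.4%) in S0_54, 11 in S1_54 and 15 (13.5%) in Courtot. None did in mix36, and 13 did in S0_36, close to the 16 in S0_54. In their own accession, the 186 had a median of 6.53 and the 111 a median of 5.87, nearer to the cutoff of 5. The shares of the 2 sets were not tested against each other.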

How the data were processed

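The deposited table gives a log2 expression value for every probe set on every array. The submitters' processing notes name GCRMA as the tool the authors used. It corrects background by probe sequence, normalises arrays to a shared distribution and summarises probes. Its version is not given in the sources used here. The table holds 61290 probe sets, of which 111 controls were left out. The number of arrays limits the precision.

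Groups came from the sample descriptions. Each pair of mix arrays agreed as technical repeats (SD of the difference 0.131 in mix36 and 0.117 in mix54) and was averaged, leaving 16 samples. Probe sets at 5 or more on at least 2 arrays were fitted with limma 3.58.1 in R 4.3.3, with a mean for each of 9 groups and moderated variances (7 residual and 3.44 prior degrees of freedom). Tests were two-sided, with Benjamini-Hochberg adjustment over 18189 probe sets. With 2 arrays against 2, an exact permutation test cannot go below p = 0.333. The scripts were tested on simulated data.

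The array platform's probe table gives 1 symbol for 1273 probe sets, several for none, and no gene for the rest. Named genes are the 15 largest rises and 15 largest falls among probe sets that passed with a log2 difference of 1 or more, with no overlap of arrays and with 1 symbol, 1 probe set for each gene. The 2 largest rises and 2 largest falls without a gene, and tested members of gene lists, were added. The members and lists were chosen with earlier results of these data known. Of the lists, only photosynthesis, carbon and methyl metabolism, and antioxidant and detoxification had tested members with a matching symbol. TUBA, TBP1 and XTH are in no list and were named after their values were seen. Alternatives changed the filter, normalisation, offset, mix arrays, weights, samples in the fit, variance model, replicate block and replicates.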

Additional observations from a re-analysis of the deposited data

Results flagged for a closer look

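The accession difference was not the same in diploids and in S0 hybrids at 1498 probe sets, by the contrast of both differences in the limma fit at an adjusted p under 0.05. At 132 probe sets both differences passed in opposite directions.

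Of the named genes, the following passed that test, given as the diploid difference minus the S0 difference on the log2 scale. The diploid difference was further toward Ae36 by 3.82 at LOC606323, 4.54 at LOC780664, 2.64 at LOC543498, 2.45 at LOC543261, 2.63 at LOC543342, 3.38 at LOC543003, 3.97 at LOC543145 and 3.45 at LOC543144. It was also further toward Ae36 by 2.84 at Ta.26910.1.S1_at and 1.79 at Ta.28115.1.S1_at, where both differences had the same sign. The value was -6.37 at LOC542946, -6.79 at LOC100037599, -4.11 at LOC100037539, -5.95 at LOC542847, -2.79 at LOC780692, -5.73 at LOC100049055 and -3.78 at LOC100049056, where the diploid difference was further toward Ae54. These genes were chosen for large diploid differences. The S0 values also hold the signal of any Joyau copies that the probes match. Joyau had a mean of 13.50 at LOC100037539 and 7.77 at LOC780664, but of 3.02 at LOC606323. The part of the Joyau signal in these unequal differences was not tested. Groups of 2 arrays are too small to single out an outlying array.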

How the results depend on the processing

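The count of 3322 probe sets fell to 1944 with array weights, to 1057 when only the accessions entered the fit and to 1155 with 1 variance and Bonferroni adjustment, and that of 2616 fell to 1057 and 1155 under the last of these and to 1575 after adding 32 on the linear scale. Without 1 replicate they ranged from 2330 to 3490 and from 2162 to 2943. With the replicate block they were 3748 and 2778. Replicate numbers were not treated as pairs: with only 2 pairs, the deviations of same-numbered Ae36 and Ae54 arrays correlated at 0.114 over probe sets. No other alternative moved either count by over 1.5 times.

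The S0 count of 1359 was 868 with the filter on the Ae arrays and 868 with 1 variance and Bonferroni adjustment, 2190 with separate mix arrays and 2766 with array weights. Without 1 replicate it was 605 to 1011, the lowest without S0_36 replicate 3, and leaving out S0_54 replicate 3 gave 688 and S0_54 replicate 4 gave 696. The count of 1498 unequal differences was 2513 with separate mix arrays, 711 with 1 variance and Bonferroni adjustment and 893 to 1681 without 1 replicate. Of the reversed probe sets, 75 of 132 were counted with 1 variance and Bonferroni adjustment and 84 to 168 without 1 replicate, in alternatives chosen after seeing the data.

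Probe sets seen in a single accession numbered 140 in Ae36 and 86 in Ae54 at 6 or more against under 4, and 112 in Ae54 at 5 or more against under 3.5. None of the named genes changed direction under any of the 16 alternatives or fewer that gave it a value. The cause of these changes was not tested.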
